A study of Mus musculus with 15 samples.

Results

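The 3 regions described here are stretches of the mouse genome (mm9 build, plus strand, counted from 1) named for the epithelial genes Perp, Trim29 and Pkp3, out of 191766 stretches with CLIP tags in embryonic forelimb. The Perp window is the 538 nt of chromosome 10 from 18576304 to 18576841. The Trim29 window is the 254 nt of chromosome 9 from 43143209 to 43143462, and the Pkp3 window the 222 nt of chromosome 7 from 148276138 to 148276359. A tag belonged to a window when its midpoint lay inside. The windows were chosen from the values of these libraries, that is, from the comparison of ΔE2 with WT forelimb and of forelimb with C2C12 cells. Levels and differences in those comparisons are therefore given as a description, without a test. Together the windows held 843 of the 366854 forelimb tags.

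Perp is a small membrane protein of the desmosome, the junction that holds cells of stratified epithelia together, and a target of p53 and p63. Pkp3, plakophilin 3, is an armadillo-repeat protein of the desmosomal plaque on the inner face of that junction. Trim29 is a tripartite-motif protein made in basal keratinocytes and other stratified epithelia. In the limb, all 3 genes are known for expression in the skin that covers the muscle, cartilage and connective tissue. Mbnl3 is a muscleblind protein, a zinc-finger protein that binds RNA in introns and 3′ untranslated regions.

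The assay was HITS-CLIP: ultraviolet light joins a protein to the RNA it touches, an antibody to Mbnl3 pulls the complexes down, and the bound RNA fragments are read as short tags. Forelimbs came from BL6 embryos at day 15, either homozygous for the Mbnl3 ΔE2 allele (titled Mbnl3 KO) or wild-type (WT), with 3 libraries per genotype, each from 4 forelimbs pooled from 2 embryos. C2C12 cells, a mouse myoblast line of WT genotype grown in 20% serum, were given as 1 combined set of 3 libraries. All CLIP samples shared the same antibody, and RNase A was used at a high and a low concentration. Which protein the antibody recovered from forelimbs homozygous for ΔE2 was not tested.

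The libraries held 67279, 40531 and 59115 tags for ΔE2 and 35413, 74123 and 124309 for WT, and the C2C12 set held 550124 without repeats. A molecule is a position, strand and barcode, and 33916 of them were common to ΔE2 replicates 2 and 3, which were therefore joined into 1 library of 65730 tags, which left 2 ΔE2 and 3 WT libraries. The 3 WT libraries shared 23.1% to 43.2% of their tags with each other and were kept apart. By their read names, ΔE2 libraries 1, 2 and 3 were read in lanes 5, 6 and 7 with 8 of a run and WT libraries 1, 2 and 3 in lanes 1, 2 and 3, so lane and genotype cannot be told apart. Libraries of different genotypes also shared molecules. In ΔE2 library 1, 35.5% of tags were also found in a WT library, against 7.47% in the joined ΔE2 library. The shared tags of ΔE2 library 1 had a median of 1 read there and of 38 reads in the WT library with most reads of that molecule. How these molecules came to be in both genotypes was not tested. The levels in the windows, the Perp and Trim29 peaks, the level around Pkp3 and the shares inside Trim29 and Pkp3 are also given without these molecules.

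At the windows, the shared molecules were unevenly spread. In the Trim29 window, 10 of the 12 tags of ΔE2 library 1 were also found in a WT library, and all 10 had fewer reads in ΔE2, with a median of 1 read in ΔE2 and 99 in WT. The 1 Trim29 tag of the joined ΔE2 library was not shared. In the Pkp3 window, 4 of 5 tags of ΔE2 library 1 and 1 of 4 of the joined library were shared. The Perp window had 34 of 144 tags of ΔE2 library 1 and 7 of 124 of the joined library shared. The high shares at Trim29 and Pkp3 were thus those of ΔE2 library 1. Of the WT tags, 5.56% to 11.9% were shared at Trim29 and 0% to 11.4% at Pkp3. Leaving shared molecules out thus took a larger part of the tags of ΔE2 library 1 than of WT there, which lowers that library against WT. At Perp it took 23.6% of the window against 35.5% of that library, which raises its level. Values without shared molecules are therefore a description and no check of the difference.

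**Figure D1:**
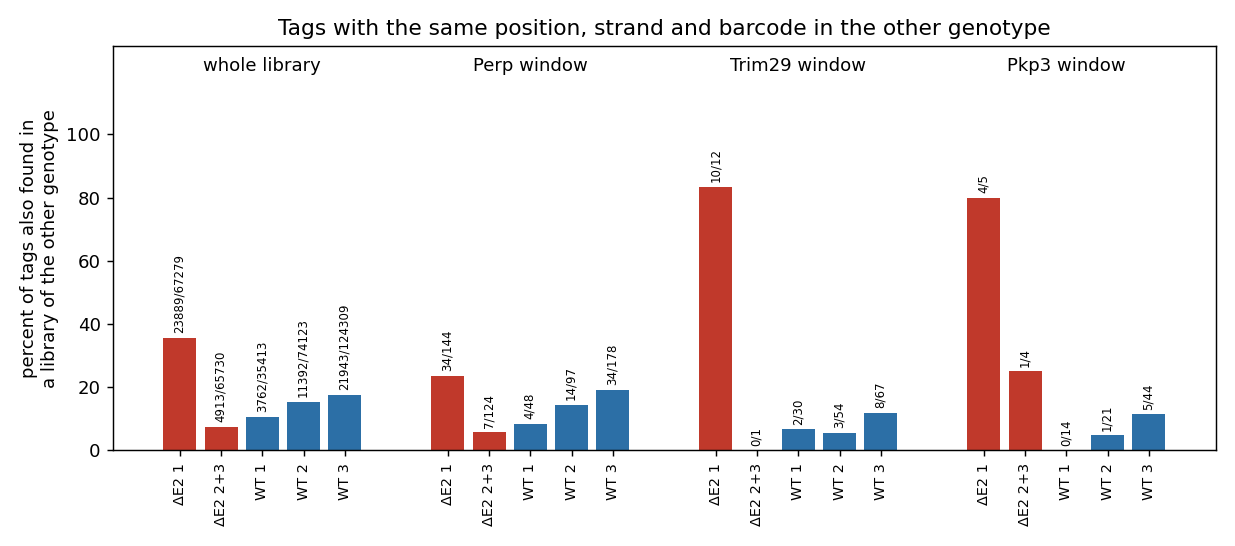
Percent of tags (y axis) whose position, strand and barcode also occurred in a library of the other genotype, for whole libraries and for each window, with counts above the bars. ΔE2 library 1 stands at 35.5% over the whole library, and at 10 of 12 tags in the Trim29 window and 4 of 5 in the Pkp3 window.

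Perp had the most tags of the 3 windows in both genotypes, and its level was higher in ΔE2. A level is the number of tags per 1000000 tags of the library. Perp stood at 2140 and 1887 in the ΔE2 libraries (144 and 124 tags), against 1355, 1309 and 1432 in the WT libraries (48, 97 and 178 tags). Both ΔE2 libraries lay above all 3 WT libraries. The means were 2013 ± 179 in ΔE2 (SD, n = 2) and 1365 ± 62.2 in WT (SD, n = 3), a ratio of 1.47. Without the molecules found in the other genotype, Perp had 2535 and 1924 per 1000000 in ΔE2 and 1390, 1323 and 1407 in WT, again without overlap. Among all 191766 stretches the Perp window had the 8th highest tag count in ΔE2 and the 15th in WT.

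Pkp3, the plaque protein of the same junction, went the other way. It had 74.3 and 60.9 tags per 1000000 in the ΔE2 libraries, from 5 and 4 tags, against 395, 283 and 354 in the WT libraries, from 14, 21 and 44 tags. All WT libraries lay above both ΔE2 libraries. The means were 67.6 ± 9.52 in ΔE2 (SD, n = 2) and 344 ± 56.6 in WT (SD, n = 3), so that ΔE2 stood at 0.196 of WT. Without the shared molecules, 1 and 3 tags remained in ΔE2, against 14, 20 and 39 in WT.

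Trim29 showed the widest gap. It had 178 and 15.2 tags per 1000000 in the ΔE2 libraries, from 12 tags and 1 tag, against 847, 729 and 539 in the WT libraries, from 30, 54 and 67 tags. The groups did not overlap. The means were 96.8 ± 115 in ΔE2 (SD, n = 2) and 705 ± 155 in WT (SD, n = 3), so that ΔE2 stood at 0.137 of WT. Without the shared molecules the ΔE2 libraries came closer together, at 46.1 and 16.4 per 1000000 from 2 tags and 1 tag, against 885, 813 and 576 in WT. The single tag of the joined ΔE2 library was the same molecule in replicates 2 and 3, with 1 and 14 reads. In the whole ΔE2 libraries 3 counts, the limit given to a count of 0, correspond to 44.6 and 45.6 per 1000000. The 15.2 of the joined library is thus of a size that a count of 0 would also allow. The levels without shared molecules are per 43390 and 60817 tags, where 3 counts stand for higher levels. Resting on 2 tags and 1 tag, they also lie under that limit. The 1 and 3 ΔE2 tags of Pkp3 without shared molecules do not exceed it either.

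**Figure D2:**
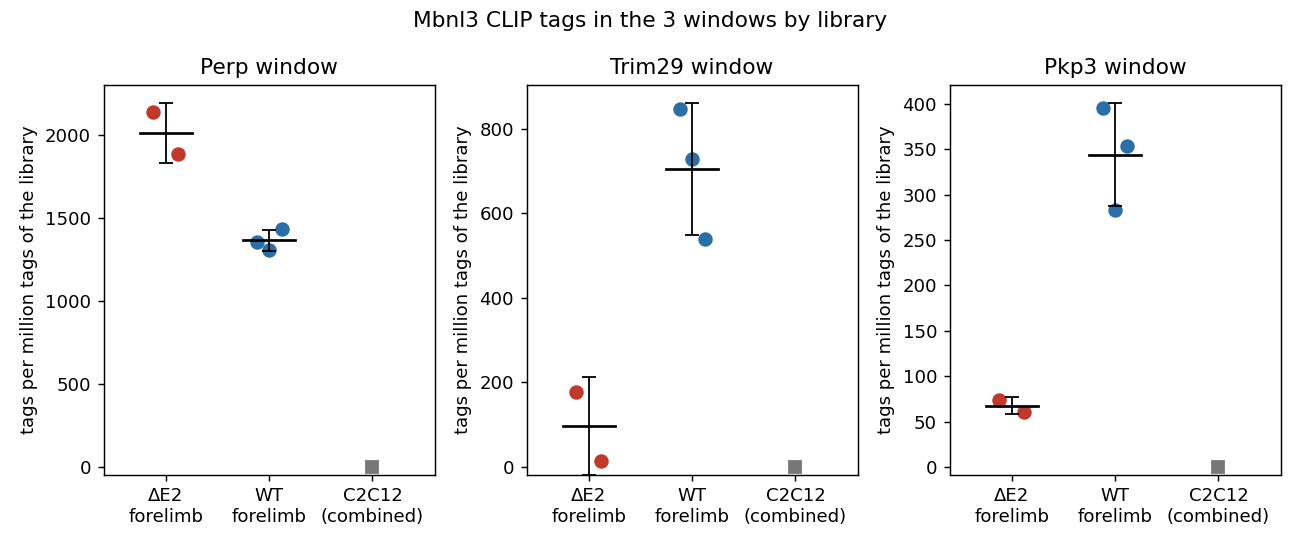
Tags per 1000000 tags of the library (y axis) in each window, for 2 ΔE2 libraries, 3 WT libraries and the combined C2C12 set; points are libraries, lines and bars the mean ± SD. ΔE2 points lie above WT at Perp (means 2013 and 1365) and below WT at Trim29 (96.8 and 705) and Pkp3 (67.6 and 344), and C2C12 is at 0 in all 3 windows.

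The ratio to Perp within each library needs no scaling, but its direction follows from how the windows were chosen, and it is given as a description. For every 100 Perp tags there were 8.33 and 0.806 Trim29 tags in the ΔE2 libraries, against 62.5, 55.7 and 37.6 in the WT libraries. Pkp3 tags numbered 3.47 and 3.23 per 100 Perp tags in ΔE2, against 29.2, 21.6 and 24.7 in WT. In bulk tissue, fewer cells of a type and less RNA per cell cannot be told apart, and gene-level RNA amounts were not analysed here, so the epithelial origin of these tags was not checked against marker RNAs.

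A model over all tested stretches (edgeR with TMM scaling, 276 of 191766 past the filter on low counts, the 3 windows among them) gave log2 folds of ΔE2 over WT. The fold was 1.09 (standard error 0.27) for Perp, -1.79 (0.40) for Pkp3 and -2.29 (0.52) for Trim29, where the median of all 276 was -0.08. All 3 windows were among the stretches called at an adjusted p of 0.05, where 22.5% of all tested stretches were called, 15.9% as higher and 6.52% as lower in ΔE2. Their CPM values did not overlap between the genotypes, as held for 55.8% of tested stretches. Since the windows were chosen from this contrast, nothing is read from these counts. The size of the Perp difference depended on the scaling: its log2 fold was 0.56 over all tags of the library, and the call was then lost, where the median of all tested stretches was -0.57. Relative to that median it was 1.13, and 1.16 with TMM. Trim29 and Pkp3 were called with both scalings. Over all tags of the library, 29% of tested stretches were called, 58 as lower and 22 as higher in ΔE2. The direction of most calls thus depended on the scaling too. Without ΔE2 replicate 1, the joined library was the only ΔE2 library. The fold was then -4.58 for Trim29, which rested on 1 ΔE2 tag, 1.26 for Perp and -1.68 for Pkp3. All 3 calls ended without WT replicate 2, where 6.53% of tested stretches were called. They also ended with WT replicates 2 and 3 joined, where 0 of 238 stretches were called. The calls of Perp and Pkp3 ended without WT replicate 3 as well, where 9.24% were called.

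The windows were then placed among the stretches most like them, the 52 others that were tested and had 0 tags in C2C12. These had a median log2 fold of -0.20 and ranged from -1.94 to 1.77, and 3 were called lower and 3 higher in ΔE2. Trim29 lay below all 52 and Pkp3 below 51 of them, while Perp lay above 50. The 3 windows thus lay near or past both ends of the range of stretches without C2C12 tags, and as they were chosen by this contrast nothing is read from their place.

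**Figure D3:**
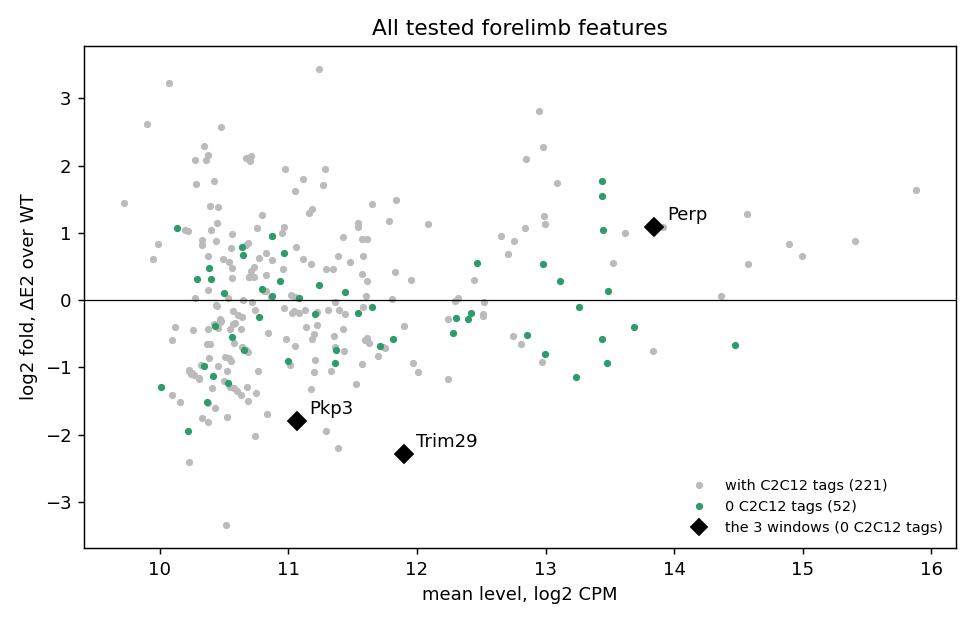
Log2 fold of ΔE2 over WT (y axis) against mean level in log2 CPM (x axis) for the 276 tested stretches; green points have 0 C2C12 tags, grey points have C2C12 tags, black diamonds are the 3 windows. Perp sits at 1.09 among the stretches with the highest levels, and Pkp3 (-1.79) and Trim29 (-2.29) lie at the lower edge.

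By distance between profiles of log2 CPM over the 5 forelimb libraries, each centred on its own mean, Trim29 and Pkp3 were 2.81 apart. Perp and Pkp3 were 3.19 apart, and Perp and Trim29 5.29. The median distance to the tested stretches outside the windows was 1.65 for Perp, 4.26 for Trim29 and 2.15 for Pkp3. Seen from Pkp3, Trim29 was thus farther away than the median stretch. Seen from Trim29, Pkp3 was nearer than the median stretch. These profiles hold the values from which the windows were chosen and are given as a description. The profile most like Perp lay on chromosome 7, minus strand, at 149762096 to 149762233, at a distance of 0.08, with 16 and 13 tags in ΔE2 and 5, 10 and 19 in WT. Next to it came the plus strand of chromosome 6 from 135332467 to 135332858, at 0.23, with 120 and 103 tags in ΔE2 and 44, 75 and 168 in WT. Nearest to Trim29 was chromosome 9, minus strand, at 42772589 to 42772818, at 0.73, with 9 tags and 1 tag in ΔE2 and 19, 27 and 48 in WT. Nearest to Pkp3 was chromosome 7, minus strand, at 149841597 to 149841713, at 0.48, with 2 tags in each ΔE2 library and 7, 13 and 19 in WT. Of these stretches, the last had 0 tags in C2C12, as the windows did, and the others had 9, 22 and 24.

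Tags within the Perp window gathered in a pair of narrow peaks, and the balance between them differed between the genotypes. The densest 50 nt, from 18576564 to 18576613, held 325 of 591 forelimb tags, and the next densest 50 nt, from 18576374 to 18576423, held 162. The downstream peak had 1338 and 1278 tags per 1000000 in the ΔE2 libraries, against 452, 621 and 716 in the WT libraries, so both ΔE2 values lay above all WT values. The upstream peak had 535 and 380 tags per 1000000 in ΔE2, against 565, 391 and 418 in WT, and on that scale the groups overlapped. The mean of the upstream peak was 458 ± 109 in ΔE2 (SD, n = 2) and 458 ± 93.4 in WT (SD, n = 3). In share of the window's tags, the downstream peak held 65.1% ± 3.71 in ΔE2 (SD, n = 2) and 43.6% ± 8.97 in WT (SD, n = 3). Without the shared molecules the downstream peak had 1775 and 1315 per 1000000 in ΔE2 and 506, 701 and 723 in WT, and the upstream peak 507 and 378 in ΔE2 and 537, 351 and 381 in WT. With the TMM scaling of the folds, the upstream peak had 5148 and 4533 CPM in ΔE2, against 3738, 2950 and 3310 in WT, without overlap. The ratio of the means was then 1.45 for the upstream peak and 3.16 for the downstream peak. Whether the upstream peak stood apart thus depended on the scaling, while the downstream peak did so on both scales. Shares of the window need no scaling. The downstream peak held 174 of the 268 ΔE2 tags of the window, from whose level the window was chosen. It was placed on the tags of both genotypes together, so its difference is given as a description. The second peak was singled out after the profile was seen.

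Single tag positions were counted inside Perp. Tags spanning 18576575 to 18576609, in the downstream peak, numbered 13 in each ΔE2 library and 1, 2 and 5 in the WT libraries, with 31 different barcodes among its 34 tags. The position from 18576399 to 18576433, in the upstream peak, also had 34 tags, of which 9 and 3 were in ΔE2 and 5, 8 and 9 in WT. In all, the 591 Perp tags began and ended at 256 different positions.

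Trim29 tags also formed a pair of peaks. In WT libraries the 50 nt from 43143292 to 43143341 held 15, 26 and 28 tags and the 50 nt from 43143377 to 43143426 held 12, 19 and 27. In ΔE2 the same stretches held 7 and 0 tags and 4 tags and 1 tag, so both peaks were lower by tag count. Per 1000000 tags, the first peak had 52.0 ± 73.6 in ΔE2 (SD, n = 2) and 333 ± 100.3 in WT (SD, n = 3), and the second 37.3 ± 31.3 in ΔE2 (SD, n = 2) and 271 ± 62.1 in WT (SD, n = 3). Without the shared molecules the first peak kept 2 and 0 tags in ΔE2, against 13, 24 and 24 in WT. The second kept 0 tags and 1 tag in ΔE2, against 12, 18 and 24 in WT.

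Pkp3 tags lay in 1 broader peak. The 50 nt from 148276271 to 148276320 held 4 of 5 tags and 1 of 4 tags in the ΔE2 libraries, against 12 of 14, 15 of 21 and 28 of 44 in the WT libraries. With 9 ΔE2 tags in all, a shift of the peak was not detectable at this depth.

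**Figure D4:**
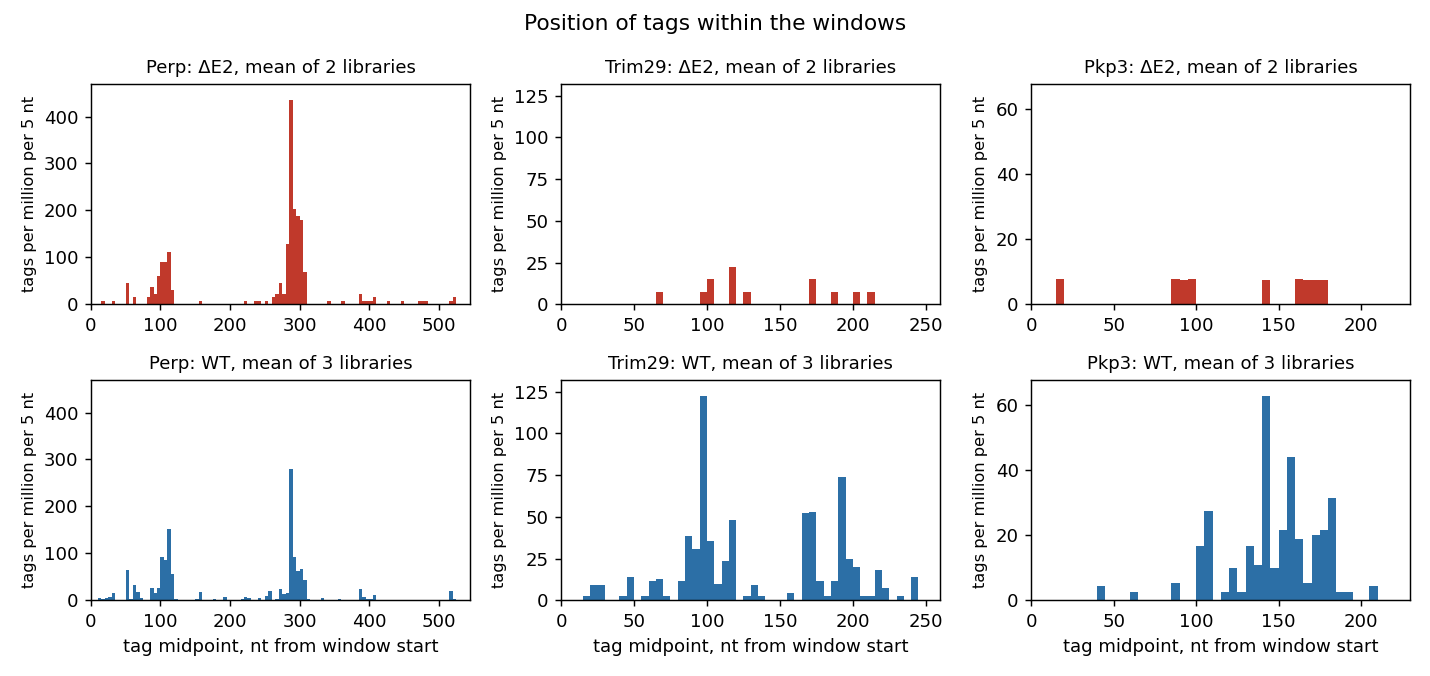
Tags per 1000000 and 5 nt (y axis) along each window by tag midpoint, in nt from the window's start (x axis); upper row, mean of 2 ΔE2 libraries, lower row, mean of 3 WT libraries. At Perp the downstream peak is taller in ΔE2 while the upstream peak is at 458 tags per 1000000 of all tags in both genotypes, an equality that TMM scaling removes (4840 and 3333 CPM), and at Trim29 and Pkp3 the WT peaks face a few ΔE2 tags.

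Tags around the windows, which the choice of windows had not used, were counted on the same strand within 10000 nt on each side. The share of local tags inside a window also uses the tags inside, from which the windows were chosen. Its direction is therefore given as a description. No mm9 annotation was used, so these tags were not assigned to exons, introns or genes. In the order of RefSeq genes, Perp lies between Gm4922 and Tnfaip3, Trim29 between Oaf and Nectin1, and Pkp3 between B4galnt4 and Sigirr.

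Around Pkp3 there were 10 and 9 tags in the ΔE2 libraries, against 3, 8 and 17 in the WT libraries, or 149 and 137 per 1000000 against 84.7, 108 and 137. Both ΔE2 values were above the WT values, the lower of them by less than 1 tag. With TMM scaling they were 1430 and 1632 CPM in ΔE2, against 561, 814 and 1082 in WT, a ratio of 1.87. Without the shared molecules and per 1000000 of all tags, they were 92.2 and 132 in ΔE2 and 63.2, 95.6 and 107 in WT, and the groups overlapped. The window held 33.3% and 30.8% of the local tags in ΔE2, against 82.4%, 72.4% and 72.1% in WT.

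Around Trim29 there were 9 and 4 tags in ΔE2, against 6, 17 and 21 in WT, or 134 and 60.9 per 1000000 against 169, 229 and 169. The level outside was 97.3 ± 51.6 per 1000000 in ΔE2 (SD, n = 2) and 189 ± 34.7 in WT (SD, n = 3), a ratio of 0.514, where the window had 0.137. With TMM scaling the outside levels were 1287 and 725 CPM in ΔE2, against 1121, 1729 and 1337 in WT, and the groups overlapped. The window held 57.1% and 20.0% of local tags in ΔE2, against 83.3%, 76.1% and 76.1% in WT. The one cluster of at least 10 tags outside the Trim29 window lay 658 nt downstream, from 43144120 to 43144181, with 2 and 0 tags in ΔE2 and 3, 8 and 8 in WT.

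Around Perp the levels outside were 505 and 411 per 1000000 in ΔE2, against 367, 472 and 547 in WT, and the groups overlapped. With TMM scaling they were 4862 and 4895 CPM in ΔE2, against 2430, 3560 and 4329 in WT, without overlap. The window held 80.9% and 82.1% of local tags in ΔE2, against 78.7%, 73.5% and 72.4% in WT. All 8 clusters of at least 10 tags around Perp lay upstream, between 18573368 and 18576297. The one next to the window, 7 nt before its start, had 6 and 4 tags in ΔE2 and 2, 5 and 7 in WT. The largest of them, from 18575679 to 18575856, had 8 and 6 tags in ΔE2 and 4, 7 and 17 in WT. Per 1000000 of all tags, the outside tags and the upstream peak thus overlapped between the genotypes, and with TMM scaling both were higher in ΔE2, with ratios of 1.42 outside and 1.45 in the upstream peak, against 3.16 in the downstream peak. The TMM values here and around the other windows were added after the values on the scale of all tags had been seen.

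Without the molecules found in the other genotype, the shares inside the windows were 28.6% and 25.0% in ΔE2 against 84.8%, 79.7% and 76.6% in WT for Trim29. They were 20.0% and 27.3% in ΔE2 against 87.5%, 76.9% and 78.0% in WT for Pkp3. These ΔE2 shares rest on 7 and 4 tags for Trim29 and 5 and 11 for Pkp3, inside and outside together.

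**Figure D5:**
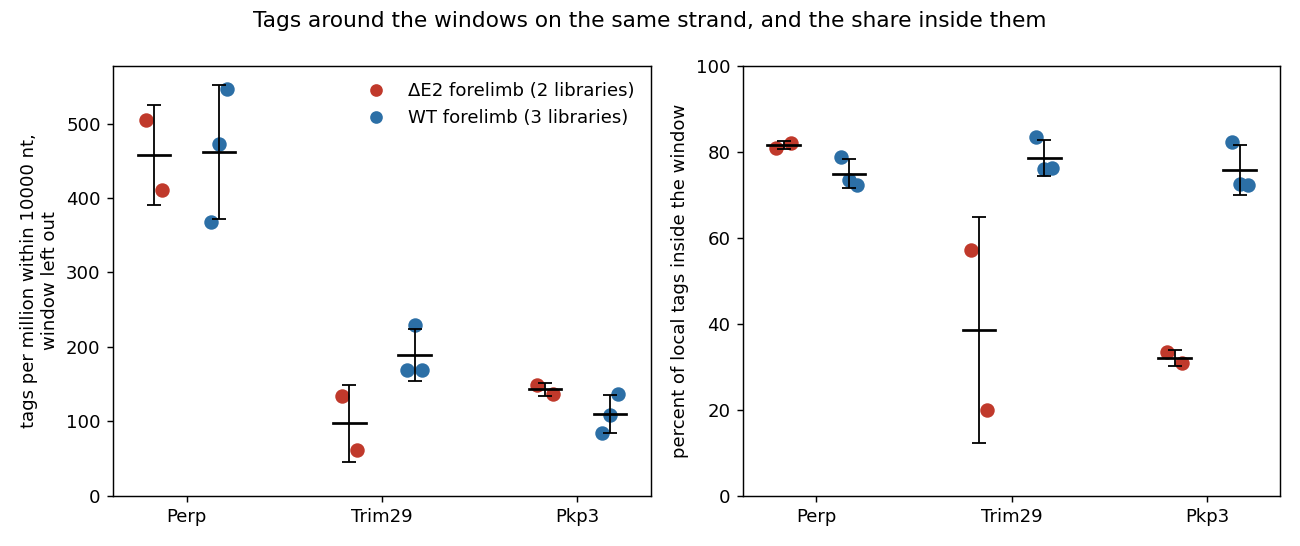
Left, tags per 1000000 within 10000 nt of each window on the same strand, window left out; right, percent of local tags inside the window; points are libraries, lines and bars the mean ± SD, ΔE2 left of WT. On the plotted scale of all tags, outside levels overlap at Perp, are lower in ΔE2 at Trim29 and higher in ΔE2 at Pkp3; with TMM scaling they are higher in ΔE2 at Perp and Pkp3 and overlap at Trim29. The share inside is lower in ΔE2 at Trim29 (57.1% and 20.0%) and Pkp3 (33.3% and 30.8%) than in any WT library. It uses the tags inside, from which the windows were chosen, and is a description.

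All tags in the windows lay on the plus strand: none of the forelimb libraries and no C2C12 tag had a midpoint in them on the minus strand. Within 10000 nt, minus-strand tags were found near Pkp3 alone, with 1 tag in WT library 3 and 2 in C2C12.

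The windows were chosen with their C2C12 values known, so the contrast with C2C12 cells is given as a description. WT forelimb had 323 tags at Perp, 151 at Trim29 and 79 at Pkp3, and C2C12 had 0 in each, which allows up to 5.45 per 1000000 (3 counts of 550124 tags, counting error only). WT levels of 1365, 705 and 344 per 1000000 stand above that limit. On the same strand within 10000 nt, C2C12 had 1 tag near Perp, 0 near Trim29 and 1 near Pkp3. RNA amounts in C2C12 were not analysed here, so a lack of the RNA and a lack of binding cannot be told apart. Tag length ran from 19 to 38 nt in the forelimb libraries and from 26 to 30 nt in C2C12.

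Median tag length was near that of the library at Perp, but not in every library at Trim29 and Pkp3. Perp tags had a median of 35 and 35 nt in the ΔE2 libraries and of 35, 34 and 30 nt in the WT libraries. All tags of these libraries had medians of 35 and 35 in ΔE2 and 35, 31 and 30 in WT. Trim29 tags had medians of 30 and 35 nt in ΔE2 and of 28, 30.5 and 29 nt in WT. For Pkp3 tags the medians were 35 and 30 nt in ΔE2 and 30, 29 and 35 nt in WT. The ΔE2 medians of Trim29 and Pkp3 rest on few tags. Reads were spread unevenly over tags: in WT library 3, a single Trim29 tag held 76.9% of the 6185 reads of the window, which is why tags and not reads were compared.

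None of the 98 cassette exon events in 84 genes of the authors' deposited table fell in Perp, Trim29 or Pkp3, nor in any of the 32 genes of a list of desmosome and epidermal genes to which they belong. The exon table gives no level of any of these RNAs.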

How the data were processed

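The submitters' processing notes name Novoalign and mm9 for the CLIP alignments. Each line of the deposited CLIP data is 1 tag with a 5-base barcode, and the score the authors gave it was not used. A position, strand and barcode was counted once per library. The authors' deposited exon table holds estimated counts per isoform, which no test used, and gene symbols alone were taken from it. Overlapping tags (at least 1 nt, same strand) were merged into 191766 stretches, with tags in the windows set apart. edgeR 4.0.16 in R 4.3.3 fitted 2 ΔE2 and 3 WT libraries (TMM, minimum count 10, quasi-likelihood, Benjamini-Hochberg). DESeq2 1.42.0 was an alternative. The procedure was tested on simulated counts. Python 3.11.15 did the rest. CPM is per 1000000 tags in tested stretches after TMM scaling, and levels are per 1000000 of all tags of a library. The 95% limits of a level are Wilson intervals.

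The members and lists were chosen with earlier results of these data known. Named stretches are the windows, those with the nearest profiles of log2(CPM + 1), of which a part is described, and clusters of at least 10 tags within 10000 nt. Replicates are labelled biological. ΔE2 designations carry the number 27 and WT and C2C12 the number 37, which no label explains. RefSeq gene order is of GRCm38.p6.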

Additional observations from a re-analysis of the deposited data

How the results depend on the processing

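No fold changed its direction under any of the 18 alternatives. For Perp, whose log2 fold was 1.09, it was 0.69 with library size in tested stretches, 0.56 over all tags of the library, 0.35 without the filter, 0.72 with tags collapsed by 5′ end, 1.32 without molecules found in more than 1 library, and 1.39 with a shared molecule kept where it had most reads. In that order, Pkp3 (-1.79) had -2.18, -2.30, -2.48, -1.55, -2.41 and -2.19. Trim29 (-2.29) had -3.74 without shared molecules and -3.91 when kept where they had most reads. The last of these alternatives, and the values of the report without molecules of the other genotype, were chosen after seeing the data. Leaving out 1 replicate gave 1.01 to 1.26 for Perp, -4.58 to -2.09 for Trim29 and -1.91 to -1.68 for Pkp3. The lowest Trim29 fold was that without ΔE2 replicate 1, which left 1 ΔE2 library with 1 Trim29 tag. Leaving out any other replicate left 0 to 3 of the 3 windows called in edgeR, where 6.53% to 35.4% of tested stretches were called.

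In edgeR, 0 windows were called without the filter, where 1 had an unadjusted p under 0.05 and 19 of 191766 stretches were called. With WT replicates 2 and 3 joined and without WT replicate 2, 0 were called, and all 3 had an unadjusted p under 0.05. Of all tested stretches, 0% and 6.53% were called there. DESeq2 called 2 windows, and 12.7% of tested stretches. Deviations of same-numbered libraries of the 2 genotypes from their group means correlated at -0.31, -0.16 and -0.22. ΔE2 replicates 2 and 3, which had 33916 molecules in common, entered there as separate libraries. The correlations therefore cannot decide whether replicate numbers pair the samples. With the replicate number as a block, folds were 1.09, -2.83 and -1.90 for Perp, Trim29 and Pkp3. All 3 were then called, as were 30.2% of tested stretches. Over the 4 scalings, the median of all tested stretches lay between -0.57 and -0.02.

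Collapsed by position, Perp had 1512 tags per 1000000 in ΔE2 and 1117 in WT. In WT, the densest 30 and 100 nt held 40.6% and 67.6% of Trim29 tags and 47.1% and 94.6% of Pkp3 tags, against 46.6% and 73.6% in 50 nt. Depth limits the ΔE2 values of Trim29 and Pkp3, which rest on 13 and 9 tags. Intervals and limits cover counting error only.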
